A study of Mus musculus with 3 samples.

Results

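The 32 interferon-stimulated genes described here are a list of transcripts that interferons are known to induce, taken by symbol from the 3 deposited single-cell count matrices. All 32 were among the 55357 listed genes and all had UMIs (unique molecular identifiers, each marking 1 captured RNA molecule) in kept cells. The cells came from brain tissue around the lesion, on the left side, of C57BL/6 males aged 6 to 8 weeks. One library came from sham mice, 1 from mice with traumatic brain injury (TBI) given phosphate-buffered saline for 3 days (TBI+PBS), and 1 from mice with TBI given interleukin-25 (TBI+IL-25). The IL-25 dose was 1 µg per mouse, first within 30 minutes of injury and then daily for 3 days. IL-25 is a cytokine of type 2 immunity. The labels give neither the number of animals in a library nor the procedure of the sham group. Each group had 1 library, so every ratio below compares libraries and not conditions, and no test was possible.

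Type I interferons such as interferon beta bind a receptor found on most cells, and the signal reaches the nucleus as a complex that contains Stat2 and Irf9. That complex binds a DNA element called the interferon-stimulated response element (ISRE) and switches on a broad antiviral programme. Interferon gamma, the type II interferon, acts on a different element, the gamma-activated site (GAS), and its targets overlap with the type I set. In the brain, microglia and astrocytes both make such transcripts in infection, ageing and injury.

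The promoters below are of listed genes that hold the ISRE core letters, which not all listed genes do, and are taken from RefSeq, build GRCm38.p6. Isg15 and Ifit1 are shown because they had their lowest level in sham in both microglia-like and astrocyte-like cells. Gbp2 is shown because its ratio of TBI+PBS over sham lay below 1 in the first of these classes and above 1 in the second. Each stretch covers the 150 bases before the annotated start, 5′ to 3′ on the gene's strand, and capitals mark the ISRE core letters GAAANNGAAA or their reverse complement. The first of 2 sites in the promoters of Ifit3 and of its close copy Ifit3b is given with 7 bases on either side, on the strand that reads GAAANNGAAA.
Isg15 promoter, chr4:156200819-156200968, - strand: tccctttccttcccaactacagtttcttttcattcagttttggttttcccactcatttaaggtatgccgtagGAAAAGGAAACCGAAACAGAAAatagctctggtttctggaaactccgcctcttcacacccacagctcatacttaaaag
Ifit1 promoter, chr19:34640739-34640888, + strand: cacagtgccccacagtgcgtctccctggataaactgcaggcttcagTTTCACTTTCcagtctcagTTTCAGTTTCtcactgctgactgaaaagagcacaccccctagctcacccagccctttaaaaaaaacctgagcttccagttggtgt
Gbp2 promoter, chr3:142620513-142620662, + strand: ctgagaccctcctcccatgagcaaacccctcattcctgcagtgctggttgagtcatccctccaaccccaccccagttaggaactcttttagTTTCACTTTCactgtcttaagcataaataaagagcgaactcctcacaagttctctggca
Ifit3 site, chr19:34583366-34583389: agaagagGAAAGTGAAActtacca
Ifit3b site, chr19:34607762-34607785: agaagagGAAAGTGAAActtacca

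The core letters were searched on both strands from 250 bases before to 50 bases after the start, and matches may overlap each other, as they do in 4 promoters, Isg15 among them. RefSeq promoters were found for 25 of the 32 genes. Of these 25, 14 held the ISRE core (56%), against 3.99% of 27025 genes with a promoter in the same table. The palindromic GAS letters TTCNNNGAA were in 6 of the 25 (24%), against 9.55% of all genes, and 2 of these 6 matches overlapped an ISRE match. The ISRE holders were Isg15, Ifit1, Ifit3, Ifit3b, Rsad2, Oas1a, Gbp2, Gbp3, Stat2, Ifih1, Ddx58, Bst2, Ifitm3 and Trim30a. A match describes letters in a window and is not evidence of binding. Within the list, the median log2 ratio of TBI+IL-25 over TBI+PBS in microglia-like cells was 0.78 for the 14 holders and 0.95 for 10 genes without the letters. In astrocyte-like cells it was 0.67 for 13 holders and 0.52 for 11 without.

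The sham library held 39536447 UMIs, the TBI+PBS library 58148289 and the TBI+IL-25 library 61372408, and 8710, 10299 and 13532 cells were kept. Median depth per kept cell was 4111, 4666 and 3841 UMIs. The libraries shared 24 to 39 cell barcodes in pairs, at most 0.366% of a library. Ribosomal RNA (Rn18s-rs5) took 0.0362%, 0.0439% and 0.798% of UMIs, and per the file headers version 7.2.0 of Cell Ranger made the TBI+IL-25 matrix and version 7.1.0 the others. Treatment, ribosomal RNA share and processing version therefore cannot be told apart in any contrast with TBI+IL-25. Levels are in CPM, the usual depth-scaled count: a gene's UMIs summed over a class of cells in a library and scaled by that class's total UMIs there. Brackets hold 95% intervals, exact Poisson for levels and exact conditional binomial for ratios, which cover counting error only. A gene is called higher at a ratio of at least 2 and lower at 0.5 or less, among genes with at least 20 UMIs over the pair.

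Summed over the 32 genes, the level was lowest in sham, higher in TBI+PBS and highest in TBI+IL-25 in microglia-like and astrocyte-like cells, which formed most of every library. In 4996, 4590 and 5531 microglia-like cells the sum was 618 CPM (607 to 629) for sham, 781 (770 to 792) for TBI+PBS and 1529 (1515 to 1544) for TBI+IL-25. In 3281, 4519 and 6685 astrocyte-like cells it was 174 CPM (167 to 180), 397 (389 to 406) and 646 (635 to 657). The 3 intervals did not overlap within either class. In microglia-like cells Bst2 and Ifitm3 alone stood at 120 and 14.7 CPM in sham, against 238 and 81.0 in TBI+PBS. Their steps together exceeded that of the sum, so between these libraries the sum shows no rise of the other genes.

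Classes with few cells had higher sums. Monocyte/macrophage-like cells (10, 248 and 106) stood at 5164 CPM (4561 to 5825), 5881 (5786 to 5977) and 8306 (8080 to 8537). Endothelial-like cells (37, 228 and 50) stood at 2833 CPM (2551 to 3137), 3165 (3060 to 3273) and 4904 (4612 to 5209). Neutrophil-like cells, of which sham had 0, stood at 3448 CPM (2814 to 4182) in 12 TBI+PBS cells and 7881 (7389 to 8397) in 48 TBI+IL-25 cells. Lowest were neuroblast-like cells at 90.2 CPM (77.6 to 104), 89.7 (76.3 to 105) and 121 (98.7 to 148), and oligodendrocyte-like cells at 128 (97.6 to 165), 145 (129 to 162) and 193 (177 to 210). Fibroblast-like cells (7, 23 and 25) stood at 1307 CPM (946 to 1760.0), 3597 (3364 to 3841) and 4757 (4404 to 5130.5). Of these sums Ifitm3 alone made 395, 2668 and 2693 CPM. It also made a large part of the monocyte/macrophage-like and endothelial-like sums, as given below, so the steps of these sums are not those of the whole list. In neuroblast-like and oligodendrocyte-like cells the intervals of sham and TBI+PBS overlapped.

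**Figure D1:**
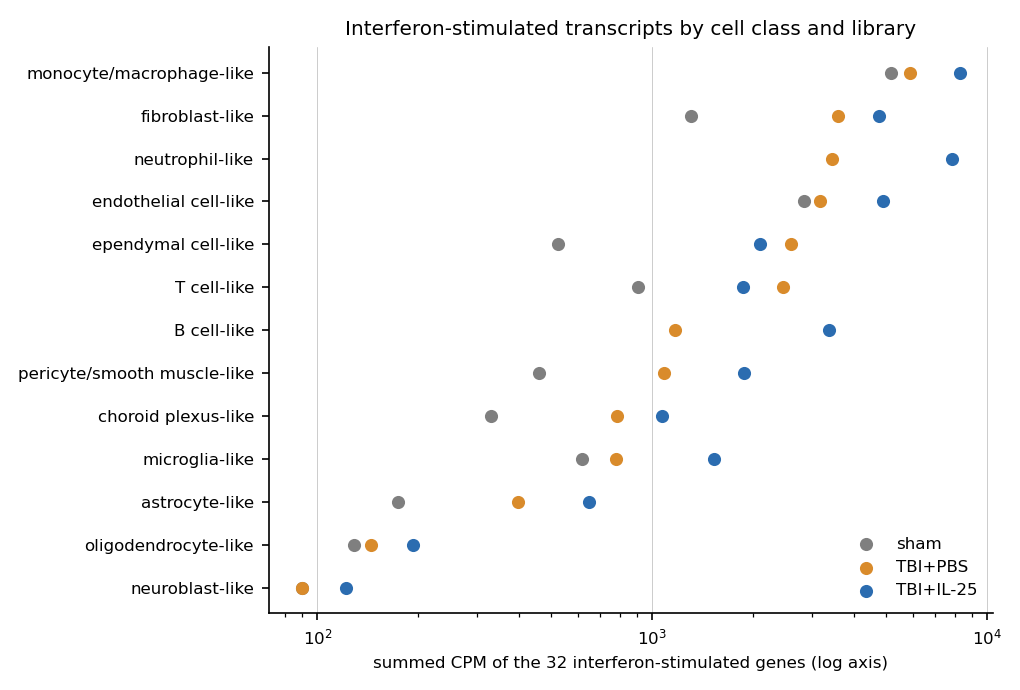
Summed CPM of the 32 genes (log axis) in each class of cells, 1 point per library and no error bars. Microglia-like and astrocyte-like cells are lowest in sham and highest in TBI+IL-25, while neuroblast-like cells lie between 89.7 and 121 CPM. In microglia-like cells the step from sham to TBI+PBS is carried by Bst2 and Ifitm3.

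**Figure D2:**
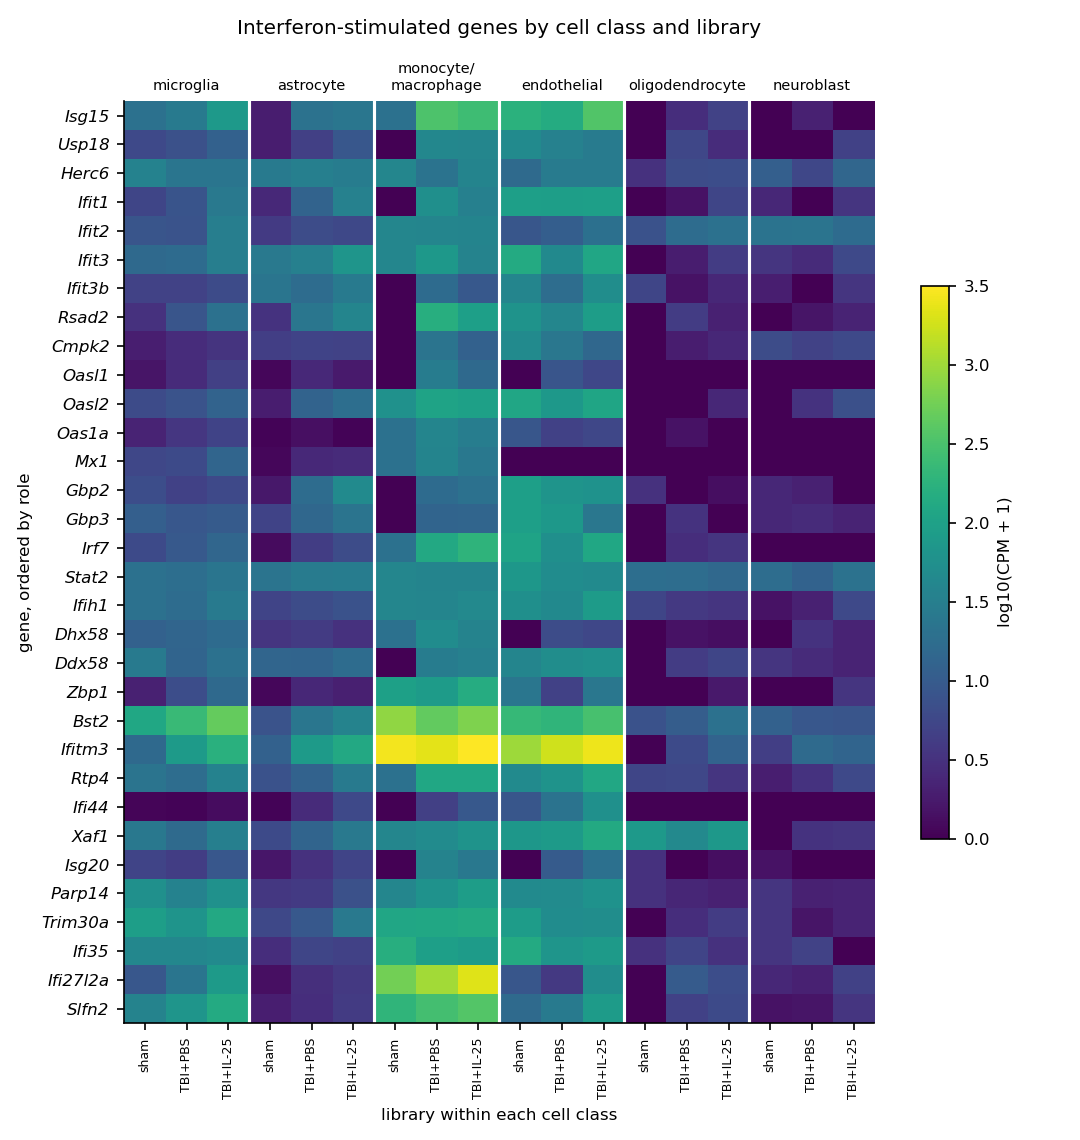
Level of each gene as log10(CPM + 1) in 6 classes of cells, 3 libraries each, with genes ordered by role. Monocyte/macrophage-like and endothelial-like columns are the brightest, with Ifitm3 at 2297 to 3400 CPM and 983 to 2605 CPM.

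The classes that gave the transcripts differed between libraries. Microglia-like cells gave 75.9% of the 15965 sham UMIs of these genes (95% binomial interval 75.2% to 76.6%), 39.4% of 49812 in TBI+PBS (39.0% to 39.8%) and 62.9% of 67929 in TBI+IL-25 (62.5% to 63.2%). Monocyte/macrophage-like cells, 0.115%, 2.41% and 0.783% of kept cells, gave 1.66% (1.47% to 1.87%), 29.4% (29.0% to 29.8%) and 7.51% (7.32% to 7.71%). A sum over all cells thus mixes the level per class with the class makeup. Over all cells, 15 of 32 genes were higher for TBI+PBS over sham and 0 lower, against 8.62% and 6.21% of all genes, and 20 were higher for TBI+IL-25 over sham and 0 lower, against 11.7% and 18.3%. The median log2 ratio of TBI+IL-25 over TBI+PBS was 0.44 (medians of the lower and upper interval bounds 0.30 and 0.60), with 2 of 32 genes higher, Ifit1 and Ifit2, and 0 lower, against 5.5% and 9.4% of all genes. Within microglia-like cells the same pair gave a median of 0.93.

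Microglia-like cells of the TBI+PBS library showed no common shift of the list against sham. Of 31 genes with enough UMIs, 6 were higher and 1 was lower, where 6.98% of all genes were higher and 7.71% lower. The median log2 ratio was 0.17 (bounds -0.13 and 0.44), beside -0.16 over all genes. Intervals lay above a ratio of 1 for 13 genes and below it for 9. TBI+IL-25 differed more. Against sham, 17 of 31 were higher and 0 lower (all genes 12% and 15.3%), with a median log2 ratio of 1.19 (0.81 and 1.52), beside -0.20 over all genes. Against TBI+PBS, 14 of 31 were higher and 0 lower (all genes 6.4% and 4.68%), with a median of 0.93 (0.59 and 1.10), beside -0.06 over all genes, and 28 intervals lay above 1 and 0 below. The share of all genes with intervals wholly above or below 1 is not given, so the interval counts only describe the list. Each library enters a pair of these contrasts, so their ratios are not independent. Ifi44 had 2, 2 and 8 UMIs in microglia-like cells and was left out there.

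Of the ubiquitin-like modifier system in microglia-like cells, Isg15, which is attached to other proteins, stood at 19.4, 26.9 and 78.2 CPM for sham, TBI+PBS and TBI+IL-25. The ratio of TBI+IL-25 over TBI+PBS was 2.91 (2.66 to 3.17) and that of TBI+PBS over sham 1.38 (1.22 to 1.57). Usp18, which removes Isg15 and dampens interferon receptor signalling, followed at 4.85, 6.33 and 11.1 CPM. Herc6, the mouse ligase for Isg15, went the other way at 34.1, 22.2 and 21.7 CPM, with a ratio of TBI+PBS over sham of 0.652 (0.581 to 0.730).

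The IFIT genes encode proteins that bind RNA ends marked as foreign. In microglia-like cells Ifit1 stood at 4.34, 7.16 and 24.8 CPM, again for sham, TBI+PBS and TBI+IL-25 in that order, and Ifit2 at 7.4, 6.92 and 30.3. Between sham and TBI+PBS, Ifit2 did not differ beyond counting error, with a ratio of 0.936 (0.747 to 1.17). Over TBI+PBS the TBI+IL-25 ratio was 3.47 (2.94 to 4.11) for Ifit1 and 4.37 (3.71 to 5.17) for Ifit2, the highest of the 31 genes in this contrast. Ifit3 stood at 14.9, 15.8 and 30.0 CPM and Ifit3b at 3.98, 3.86 and 5.30. Ifit3 and Ifit3b are near copies: 61.8% of the 31-base words of the Ifit3 transcript occur in Ifit3b and 54.1% the other way, so reads may have been split between them or dropped, and their separate levels are uncertain.

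Rsad2 (viperin, which makes a chain-terminating nucleotide) stood at 2.14, 7.36 and 18.9 CPM in microglia-like cells. Its ratio of TBI+PBS over sham was 3.44 (2.45 to 4.92), but it rested on 1 cluster: without the cluster led by Spp1, an alternative chosen after seeing the data, its log2 ratio was -0.022. Cmpk2, a nucleotide kinase, stood at 0.969, 1.79 and 2.33 CPM. Oas1a, whose product activates RNase L, stood at 1.22, 2.63 and 4.08 CPM, and the related Oasl1 and Oasl2 at 0.561, 1.67 and 3.58 and at 5.31, 6.76 and 12.1. All 5 genes had their lowest level in sham and their highest in TBI+IL-25.

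Among the GTPases, Mx1 stood at 4.54, 5.09 and 13 CPM in microglia-like cells. The guanylate-binding proteins Gbp2 (5.76, 3.70 and 4.98 CPM) and Gbp3 (10.5, 7.80 and 9.17) were highest in sham, with ratios of TBI+PBS over sham of 0.642 (0.483 to 0.852) and 0.742 (0.607 to 0.907). Irf7, the transcription factor that amplifies interferon production, stood at 5.10, 8.43 and 13.1 CPM, and Stat2 at 19.4, 17.6 and 21.8. Stat2 differed from sham in neither injured library beyond counting error.

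The nucleic acid sensors split. Zbp1, which recognises left-handed nucleic acids and can start necroptosis, stood at 1.07, 5.81 and 14.7 CPM in microglia-like cells, with ratios over sham of 5.42 (3.42 to 9.02) in TBI+PBS against 13.7 (8.85 to 22.4) in TBI+IL-25. Ddx58 (RIG-I), a cytosolic RNA sensor, stood at 26.1, 12.3 and 19.2 CPM and was the 1 gene called lower for TBI+PBS over sham, at a ratio of 0.472 (0.409 to 0.545). Ifih1, a sensor of long double-stranded RNA, stood at 19.5, 16.4 and 25.4 CPM, and Dhx58, which modulates these sensors, at 11.3, 12.9 and 15.6.

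Of the membrane proteins, Bst2 had the highest level of the 32 genes in microglia-like cells of each library. Bst2 (tetherin, which holds budding virus at the surface) stood at 120, 238 and 463 CPM, with stepwise ratios of 1.98 (1.89 to 2.08) and 1.94 (1.89 to 2.01). Ifitm3, which hinders viral membrane fusion, stood at 14.7, 81.0 and 163 CPM, with stepwise ratios of 5.52 (4.87 to 6.26) and 2.02 (1.91 to 2.13). Rtp4, a chaperone of receptors, stood at 21, 16.9 and 34.4 CPM. Bst2 and Ifitm3 were higher at each step, while Rtp4 was lowest in TBI+PBS.

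Of the other effectors in microglia-like cells, Ifi27l2a stood at 7.86, 22 and 78.9 CPM, with stepwise ratios of 2.80 (2.33 to 3.36) and 3.59 (3.27 to 3.95). Slfn2, which maintains quiescence in T cells, stood at 36.3, 65.9 and 139 CPM. Trim30a, a brake on Toll-like receptor signalling, stood at 89.4, 62.9 and 127 CPM, Parp14, an ADP-ribosyltransferase, at 56.6, 35.1 and 57.4, and Xaf1, a promoter of apoptosis, at 24.3, 15.2 and 31.9. These last 3 shared a dip in TBI+PBS, with ratios over sham of 0.704 (0.657 to 0.754), 0.621 (0.568 to 0.679) and 0.626 (0.546 to 0.718). Isg20, an exonuclease, stood at 4.23, 3.34 and 7.91 CPM, and Ifi35 differed little, at 40.8, 40.9 and 46.3.

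Astrocyte-like cells differed from sham in both injured libraries across most of the list. For TBI+PBS over sham, 19 of 31 genes were higher and 0 lower (all genes 7.29% and 6.16%), with a median log2 ratio of 1.72 (0.88 and 2.05), beside -0.06 over all genes. The 19 include Slfn2, whose level here lay within the background of microglia RNA. For TBI+IL-25 over sham, 22 of 30, Slfn2 again included, were higher and 0 lower (12.2% and 23.1%), with a median of 2.38 (1.64 and 2.74), beside -0.28. Between the injured libraries, TBI+IL-25 over TBI+PBS, 9 of 31 were higher and 0 lower (5.03% and 11.9%), with a median of 0.65 (0.31 and 0.85), beside -0.21, and 20 intervals lay above 1 and 1 below. Here too the share of all genes with intervals off 1 is not given. Oas1a had 1, 8 and 2 UMIs in astrocyte-like cells and passed in none of the contrasts, and Oasl1 did not pass in TBI+IL-25 over sham.

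Isg15, Usp18, Oasl2, Gbp2 and Irf7 were all below 1 CPM in sham astrocyte-like cells. Isg15 stood at 0.883, 19.9 and 22.8 CPM, the first from 13 UMIs, with a ratio of TBI+PBS over sham of 22.6 (13.1 to 42.8). TBI+IL-25 over TBI+PBS was 1.14 (1.00 to 1.31), an interval that starts at 1. Usp18 stood at 0.883, 3.54 and 7.88 CPM. Herc6 did not pass 2-fold in any contrast, at 26.1, 31.7 and 28.8 CPM.

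Ifit1 stood at 1.56, 12.0 and 34.0 CPM in astrocyte-like cells, with ratios over sham of 7.71 (5.03 to 12.4) and 21.8 (14.4 to 34.5). Ifit3 started from 24.8 CPM in sham and stood at 32.2 and 66.3, with a ratio of 2.06 (1.88 to 2.26) between the injured libraries. Ifit3b stood at 22, 16.2 and 25.7 CPM, and Ifit2 at 2.92, 5.55 and 4.75. Within this family Ifit2 was thus lower with IL-25 than with PBS in astrocyte-like cells by its point value, at a ratio of 0.856 (0.650 to 1.13), an interval that holds 1.

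Rsad2 stood at 2.24, 22.5 and 38.2 CPM in astrocyte-like cells, with a ratio of TBI+PBS over sham of 10.0 (7.04 to 14.7). Oasl2 stood at 0.883, 12.0 and 17.3 CPM, with ratios over sham of 13.6 (7.84 to 26.0) and 19.6 (11.3 to 37.1). Oasl1, a mouse repressor of Irf7 translation, had only 2, 32 and 17 UMIs, and Cmpk2 stayed at 3.53, 4.02 and 3.97 CPM. Oasl1 was the gene with the lowest ratio of TBI+IL-25 over TBI+PBS, at 0.512 (0.267 to 0.951).

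Gbp2 had the largest ratio over sham among genes with at least 10 sham UMIs in astrocyte-like cells. It stood at 0.679, 16.2 and 46.0 CPM, the first from 10 UMIs, with ratios over sham of 23.8 (12.8 to 50.1) and 67.8 (36.7 to 142) and a ratio of 2.85 (2.51 to 3.23) between the injured libraries. Gbp3 stood at 4.07, 13.7 and 21.1 CPM. The cells that carried Gbp2 changed with this: microglia-like cells held 73.4% of its 154 UMIs in sham, while astrocyte-like cells held 55.6% of 608 in TBI+PBS and 81.7% of 1221 in TBI+IL-25. Mx1 had 2, 32 and 36 UMIs in astrocyte-like cells.

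Irf7 stood at 0.272, 3.30 and 5.53 CPM in astrocyte-like cells and Stat2 at 21.5, 27.7 and 28.4. Irf7 passed 2-fold over sham in both injured libraries and Stat2 in neither. By its point values Stat2 was above sham in both, unlike in microglia-like cells, where it did not differ from sham beyond counting error. Of the sensors, Ddx58 stood at 13, 12.5 and 16.2 CPM, Ifih1 at 4.21, 5.50 and 6.69 and Dhx58 at 2.51, 3.06 and 2.17, and none of these passed 2-fold. Zbp1 had 2, 31 and 22 UMIs. Bst2 stood at 6.86, 22.6 and 36.0 CPM, with ratios over sham of 3.30 (2.65 to 4.13) and 5.24 (4.26 to 6.52). Ifitm3 stood at 11.1, 81.0 and 130 CPM, with ratios over sham of 7.32 (6.23 to 8.65) and 11.7 (10.0 to 13.8), close to its values in microglia-like cells.

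Rtp4 stood at 6.72, 11.6 and 25.6 CPM in astrocyte-like cells, Xaf1 at 5.16, 12.3 and 25.3, and Trim30a at 4.75, 8.08 and 24.9. Trim30a had the largest ratio of TBI+IL-25 over TBI+PBS by its lower bound, at 3.09 (2.59 to 3.69). Ifi44 had 1, 35 and 106 UMIs, with a ratio of 2.92 (1.98 to 4.41) between the injured libraries. Against the single sham UMI its ratio was 24.6 (4.14 to 1001) in TBI+PBS against 72.0 (12.6 to 2869.8) in TBI+IL-25. Parp14 stood at 2.65, 2.92 and 6.32 CPM, Isg20 at 0.611, 2.20 and 4.29, and Ifi35 at 1.83, 4.45 and 3.78.

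RNA from other cells bears on low values. The 10 microglia markers summed in astrocyte-like cells to 3.24%, 3.01% and 2.33% of their level in microglia-like cells, and none was at 0. Slfn2 in astrocyte-like cells (0.950, 1.91 and 3.00 CPM) was 2.62%, 2.90% and 2.16% of its microglia-like level, at or below that background, and is read as such. Ifi27l2a (0.407, 2.01 and 2.81 CPM) was at 5.19%, 9.14% and 3.56%. In sham, Mx1 was at 2.99% of its microglia-like level, Ifi35 at 4.49%, Isg15 at 4.54% and Parp14 at 4.68%, beside 3.24% for the markers. The part of microglia RNA in these sham levels, and so in ratios over them, was not tested. Gbp2, Ifit1, Ifit3 and Rsad2 had higher CPM in astrocyte-like than in microglia-like cells of both injured libraries.

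**Figure D3:**
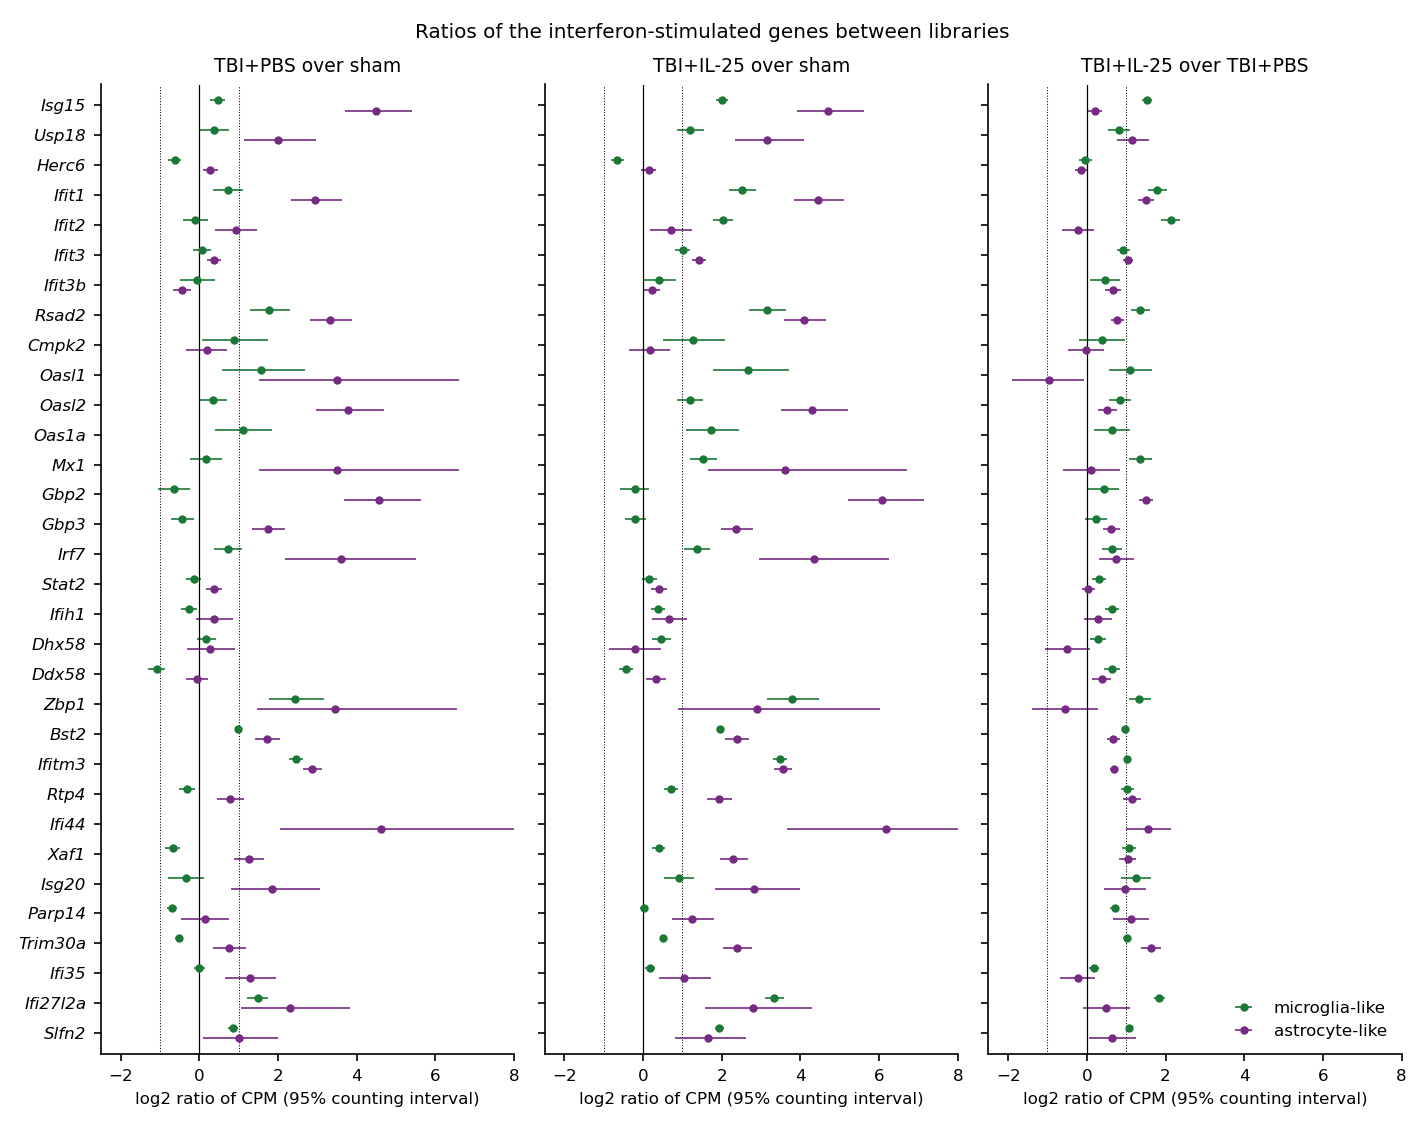
Log2 ratio of each gene in microglia-like and astrocyte-like cells for the 3 pairs of libraries, with 95% counting intervals and dotted lines at 2-fold (the axis ends at 8, where intervals of Ifi44 are clipped). For TBI+PBS over sham 28 of 30 genes have the larger ratio in astrocyte-like cells, and for TBI+IL-25 over TBI+PBS 21 of 30 have it in microglia-like cells. The same shares over all genes are not given.

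The list did not move as 1 block across both classes. For TBI+PBS over sham, 30 genes had enough UMIs in both: 28 had the larger ratio in astrocyte-like cells, and 20 of these with intervals apart. Rsad2, Oasl1, Zbp1, Ifitm3 and Ifi27l2a were higher in both classes, 13 genes in astrocyte-like cells and not in microglia-like cells, and 0 the other way. Slfn2 is 1 of these 13, and for it the values in astrocyte-like cells are background, so no difference between the classes is read from it. Herc6, Gbp2, Gbp3, Rtp4, Xaf1 and Trim30a had intervals below 1 in microglia-like and above 1 in astrocyte-like cells. For TBI+IL-25 over TBI+PBS, 21 of 30 had the larger ratio in microglia-like cells, 10 of them with intervals apart, against 2 apart in the other direction. Ifit1, Rtp4, Xaf1 and Trim30a were higher in both. Another 10 genes, among them Isg15, Ifit2, Rsad2 and Ifi27l2a, were higher in microglia-like cells alone, and Usp18, Ifit3, Gbp2 and Parp14 in astrocyte-like cells alone. Across genes, Spearman's rho between the classes was 0.47 over 30 genes for TBI+PBS over sham and 0.13 over 30 genes for TBI+IL-25 over TBI+PBS. Both classes come from the same libraries and genes are not independent replicates, so rho is a description. For TBI+PBS over sham, 7.29% of all genes were higher in astrocyte-like and 6.98% in microglia-like cells. The share of all genes with the larger ratio in 1 class, or with intervals apart, is not given. The counts above thus describe the list and do not set it apart from other genes. Differences between the classes were not tested.

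The classes were made of different clusters in different libraries, and levels followed the cluster as well as the library. Joint clustering gave 29 clusters, and these genes were left out of the genes used for it. In the microglia-like clusters that hold most sham cells, those with P2ry12 among their leading genes (clusters 1 and 2), the sum was 624 and 589 CPM in sham, 591 and 521 in TBI+PBS, and 1496 and 1366 in TBI+IL-25. Cluster 0 (Ly86) gave 704, 672 and 1399. Within these 3 clusters the median log2 ratio of TBI+PBS over sham was -0.49, -0.46 and -0.37 over 27, 27 and 28 genes, and that of TBI+IL-25 over TBI+PBS 1.07, 1.24 and 0.94 over 19, 19 and 30. TBI+IL-25 was higher than TBI+PBS in the median within each of these clusters, while TBI+PBS was not higher than sham.

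A cluster led by Adam8 and Spp1 (cluster 13; 0, 290 and 250 cells), here called Spp1-led, had 7 of 10 microglia markers and stood apart, at 1709 CPM in TBI+PBS against 2760 in TBI+IL-25. In it, Rsad2 was at 48.3 and 77.3 CPM and Ifitm3 at 251 and 441. Without this cluster, an alternative chosen after seeing the data, the microglia-like median of TBI+PBS over sham was -0.21 with 2 genes higher and 2 lower. The log2 ratio of Rsad2 was then -0.022 in place of 1.78. The shares of all genes called without this cluster are not given. The cluster led by Tnf (cluster 7), with 18, 252 and 2156 cells, held 39.0% of TBI+IL-25 microglia-like cells and stood at 658 CPM in TBI+PBS against 1395 in TBI+IL-25. Its median log2 ratio between the injured libraries was 1.21.

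In astrocyte-like cells the cluster led by Lcn2 (cluster 11) had 0, 474 and 365 cells and gave 1316 CPM in TBI+PBS against 2334 in TBI+IL-25. The latter was the highest TBI+IL-25 sum among astrocyte-like clusters with at least 20 cells of that library. There Gbp2 was at 102 and 214 CPM, Rsad2 at 71.9 and 194 and Ifit1 at 51.0 and 124. The cluster led by Lif (cluster 4) had 1, 98 and 2912 cells and gave 1312 CPM in TBI+PBS against 621 in TBI+IL-25, and its 98 TBI+PBS cells held Rsad2 at 332 CPM. Of the 4 astrocyte-like clusters with at least 100 cells of every library, 3 differed less in the sum: cluster 3 (Agt) gave 198, 234 and 319 CPM, cluster 6 (Hapln1) 156, 270 and 317, and cluster 12 (Crym) 221, 276 and 342. Their median log2 ratios of TBI+PBS over sham were 0.23 over 21 genes, 0.63 over 19 and -0.06 over 7. These gene sets are smaller than the 31 genes of the class, since genes with few UMIs drop out, and so the medians are not comparable with that of the class. The remaining cluster (cluster 5, Aldoc), which had shallow cells, gave 168, 340 and 679 CPM, with a median log2 ratio of TBI+IL-25 over TBI+PBS of 1.21 over 16 genes, while 3 genes had enough UMIs for TBI+PBS over sham. The class ratios of astrocyte-like cells combine levels within clusters with clusters of which sham had 0 or 1 cells.

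**Figure D4:**
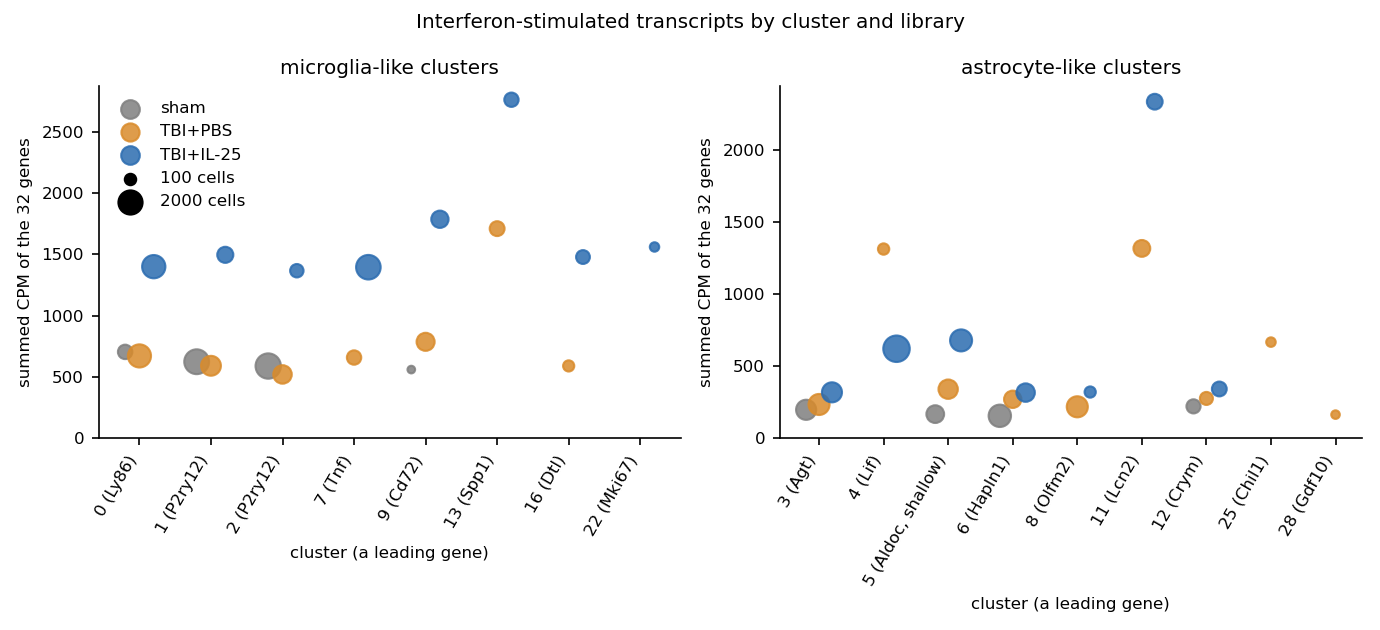
Summed CPM of the 32 genes in each microglia-like and astrocyte-like cluster, 1 point per library with point size growing with cell number, where the library had at least 20 cells in it. Every microglia-like cluster with both injured libraries is higher in TBI+IL-25 than in TBI+PBS, and the clusters led by Spp1 and Lcn2 are the highest of their class in TBI+IL-25.

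In single cells the UMIs of the list were unevenly spread. Cells were thinned to 1000 UMIs so that depth was equal, leaving out 94, 59 and 162 microglia-like and 444, 654 and 1234 astrocyte-like cells below that depth. At least 3 UMIs of the list were held by 3.26% (2.78% to 3.80%), 5.10% (4.48% to 5.78%) and 17.9% (16.8% to 18.9%) of microglia-like cells, in the same order of libraries. Among astrocyte-like cells it was 0.176% (0.0572% to 0.411%), 2.41% (1.95% to 2.94%) and 5.78% (5.17% to 6.43%). In TBI+IL-25, 32.9% of microglia-like cells held 0 UMIs of the list at this depth, against 61.6% in sham, while in astrocyte-like cells it was 72.3% against 84.2%. These shares depend on depth and do not count the cells that express the genes: at 2000 UMIs 14.7% of TBI+IL-25 microglia-like and 58.4% of TBI+IL-25 astrocyte-like cells held 0.

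The variance of the summed UMIs per cell, over their mean, measures how unevenly the sum is spread over cells. It would be near 1 for rare transcripts spread at random. Different genes in the same cells, uneven spread of 1 abundant gene, or differences between clusters can each raise it. The value was 2.58, 4.62 and 2.85 in microglia-like and 1.37, 5.00 and 5.58 in astrocyte-like cells. Of the astrocyte-like cells with at least 3 UMIs, 51.6% in TBI+PBS were in the Lcn2-led cluster, which held 9.70% of the cells. In TBI+IL-25 the Lif-led cluster held 59.0% of them with 52.3% of cells, and the Lcn2-led cluster 26.0% with 5.21%. In microglia-like cells of TBI+PBS, 24.7% of such cells were in the Spp1-led cluster with 6.36% of cells.

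For each gene, its mean in cells holding at least 3 UMIs of the other listed genes was set against its mean in cells holding 0 of them. The median fold over genes with at least 20 UMIs in both sets together was 6.17 (19 genes), 5.16 (22) and 3.75 (27) in microglia-like cells of the 3 libraries. It was 33.3 (16 genes) and 23.1 (19) in astrocyte-like cells of TBI+PBS and TBI+IL-25, where every one of these genes was at least 2-fold. A gene could reach the minimum almost entirely through cells rich in the others, as Rsad2 did in TBI+PBS microglia-like cells, with 21 UMIs against 1. The fold of all genes in the same cells is not given, so these folds describe the list and do not set it apart from other genes. Sham astrocyte-like cells had too few cells with at least 3 UMIs of the others. Ifit3b in TBI+IL-25 microglia-like cells had no UMI in the cells without other listed genes and got no fold. Ifit3 had the highest fold in microglia-like cells of each library, at 180 (77.7 to 510) in sham, 353 (93.7 to 2984) in TBI+PBS against 25.4 (12.4 to 60.3) in TBI+IL-25. Its near copy Ifit3b is among the other listed genes, and the part of shared reads in this fold was not tested. Gbp3 was among the lowest, at 1.66 (0.326 to 5.26), 2.48 (0.613 to 7.45) and 1.13 (0.435 to 2.75), and Ifi35 and Ddx58 were also low in sham and TBI+PBS. In astrocyte-like cells Rsad2 (310 and 74.2) and Oasl2 (126 and 83.2) were high, and Stat2 (2.24 and 4.91) and Herc6 (3.81 and 6.13) were lowest. Among genes that passed the minimum the folds were thus graded, with those of Ifit3, Oasl2 and Rsad2 among the highest. Herc6 and Stat2 were among the lowest in astrocyte-like cells, as Gbp3 and Ifi35 were in microglia-like cells.

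**Figure D5:**
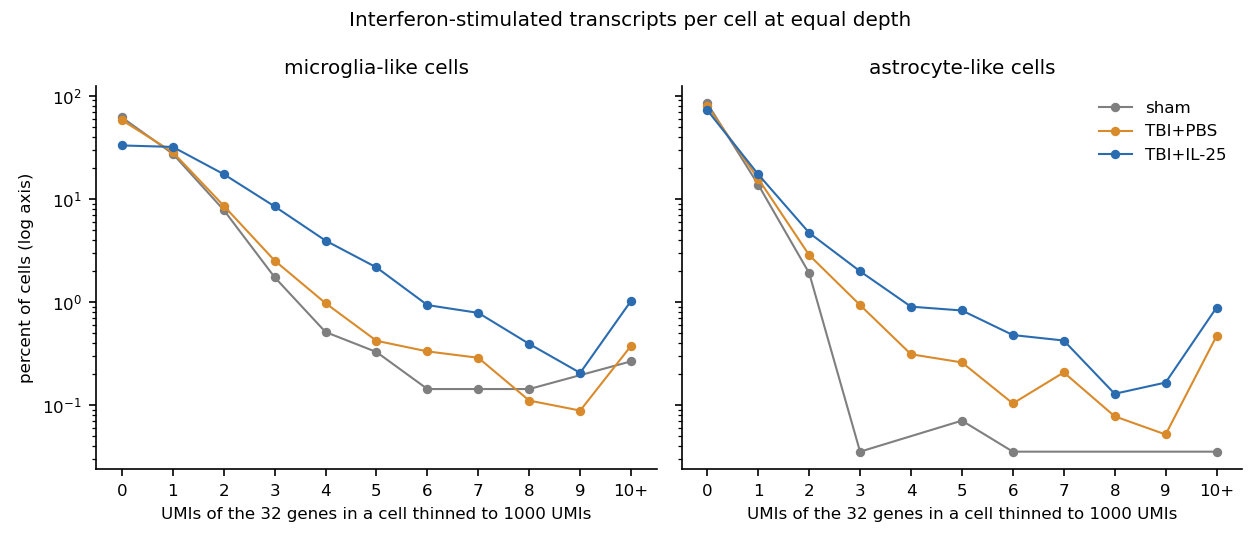
Percent of microglia-like and astrocyte-like cells (log axis) by the number of UMIs of the 32 genes in a cell, after thinning to 1000 UMIs. In TBI+IL-25 32.9% of microglia-like cells hold 0 against 61.6% in sham, while 72.3% of TBI+IL-25 astrocyte-like cells hold 0.

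Monocyte/macrophage-like cells, all in cluster 15, had high levels and no common shift between the injured libraries. With 31 genes measured, 1 was higher and 1 lower for TBI+IL-25 over TBI+PBS (all genes 4.62% and 9.61%), with a median log2 ratio of 0.02 (-0.65 and 0.60). Ifi27l2a stood at 565, 1017 and 2111 CPM, with a ratio of 2.07 (1.94 to 2.22), and Ifitm3 at 2748, 2297 and 3400 CPM, with a ratio of 1.48 (1.41 to 1.56). Zbp1 followed at 1.77 (1.37 to 2.28). In the other direction Ifit3 was at 0.490 (0.300 to 0.765), Rsad2 at 0.605 (0.450 to 0.801) and Isg15 at 0.790 (0.662 to 0.938), all of which had ratios above 1 in microglia-like cells. Sham had 10 cells here, in which Isg15 had 1 UMI and Rsad2 had 0, which with a limit of 3 counts per library makes Rsad2 at least 2.62-fold higher in TBI+PBS, with a lower 95% bound of the ratio itself of 2.12. The 10 microglia markers were at 12.8%, 8.45% and 13.6% of their own level in this class, and their part in its values was not tested.

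Endothelial-like cells, all in cluster 17, already expressed the list in sham. In 37 sham cells Isg15 was at 169 CPM and Ifit3 at 138, and 32.3% of 31 cells deep enough held at least 3 UMIs of the list (16.7% to 51.4%), against 3.26% of microglia-like cells. For TBI+PBS over sham, 1 of 24 genes was higher and 3 were lower (13.1% and 5.8% of all genes), Ifit3 at a ratio of 0.329 (0.188 to 0.599) and Ifi35 at 0.469 (0.277 to 0.838) among them. For TBI+IL-25 over TBI+PBS, 8 of 24 were higher and 1 lower (5.87% and 11.7%), with a median log2 ratio of 0.61 (-0.02 and 1.26). Isg15 stood at 169, 143 and 358 CPM, with a ratio of 2.51 (1.88 to 3.31) between the injured libraries, and Ifit3 at 138, 45.4 and 116, with 2.56 (1.51 to 4.22). Slfn2 had 2, 28 and 18 UMIs, with a ratio of 3.22 (1.68 to 6.03). Ifitm3 stood at 983, 1750 and 2605 CPM, higher at each step. Microglia markers in this class were at 13.7%, 8.22% and 12.8% of their own level, lowest in TBI+PBS, and their part in its values was not tested.

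Ifitm3 was higher in both injured libraries than in sham in every barrier and vascular class measured. It stood at 297, 1973 and 1602 CPM in ependymal-like cells, at 395, 2668 and 2693 in fibroblast-like cells, and at 262, 766 and 1465 in pericyte/smooth muscle-like cells. In choroid plexus-like cells it stood at 95, 508 and 409 CPM. T cell-like cells had 0, 103 and 8 UMIs of it, and the ratio of TBI+IL-25 over TBI+PBS was 0.0780 (0.0328 to 0.160) in 92 against 65 cells. Ifi27l2a in ependymal-like cells showed the same form, with 0, 47 and 2 UMIs in 15, 29 and 50 cells, while in B cell-like cells it stood at 327 CPM in TBI+PBS against 1668 in TBI+IL-25, a ratio of 5.11 (3.22 to 8.41).

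In smaller classes few of the listed genes had enough UMIs to count. TBI+IL-25 over TBI+PBS had 7 of 14 higher and 0 lower in neutrophil-like cells, against 16.5% and 12.2% of all genes. In choroid plexus-like cells it was 6 and 0 of 9, against 6.42% and 4.16%, and in T cell-like cells 1 and 1 of 15, against 5.81% and 8.39%. Fibroblast-like cells (7, 23 and 25) had 0, 9 and 47 UMIs of Ifit1, a ratio of 9.14 (4.43 to 21.2) between the injured libraries. Neutrophil-like cells had 0 Rsad2 UMIs in 12 TBI+PBS cells and 40 in 48 TBI+IL-25 cells, at least 3.28-fold higher by the limit of 3 counts per library, with a lower 95% bound of the ratio itself of 2.55. In oligodendrocyte-like cells Xaf1 stood at 73.9, 43.2 and 73.5 CPM, with a ratio of TBI+PBS over sham of 0.585 (0.392 to 0.894), the same dip as in microglia-like cells. Neuroblast-like cells had Ifit2 at 20.8, 21.3 and 15.9 CPM, without a difference beyond counting error. Each of these classes had at most 643 cells in a library.

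The ligands upstream of the list were read next. Ifnb1, which encodes interferon beta, had 14, 44 and 1160 UMIs in microglia-like cells of sham, TBI+PBS and TBI+IL-25 (0.714, 1.75 and 41.5 CPM), with a ratio of 23.7 (17.6 to 32.8) between the injured libraries. Astrocyte-like cells had 2, 1 and 24 UMIs of it. Ifng, which encodes interferon gamma, had 2, 6 and 32 UMIs over all cells and 0 in microglia-like and astrocyte-like cells of each library. Ifna2 had 0, 2 and 3 UMIs and Ifnk 0, 0 and 2 over all cells, and the other 6 listed ligand genes had 0. Of the receptor chains in microglia-like cells, Ifnar1 (72.4, 66.8 and 66.0 CPM) and Ifnar2 (241, 219 and 216), the type I receptor, differed little, with ratios of TBI+IL-25 over sham of 0.911 and 0.900. Ifngr1, the ligand-binding chain for interferon gamma, stood at 1206, 886 and 581 CPM, a ratio of 0.482 (0.472 to 0.492) for TBI+IL-25 over sham. In astrocyte-like cells Ifnar1 stood at 47.4, 47.6 and 54.2 CPM and Ifngr1 at 110, 102 and 62.8.

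The 8 signalling genes had a median log2 ratio of TBI+IL-25 over TBI+PBS of 0.37 in microglia-like and 0.28 in astrocyte-like cells. Irf9, the DNA-binding partner of Stat2, stood at 40.8, 37.4 and 52.1 CPM in microglia-like cells and at 14.6, 28.2 and 41.4 in astrocyte-like cells. Socs3, a feedback inhibitor, stood at 198, 575 and 792 CPM and at 5.57, 295 and 820. Over TBI+PBS, TBI+IL-25 had 0 of 8 higher and 0 lower in microglia-like cells, and 1 of 8 higher, Socs3, and 2 lower in astrocyte-like cells (all genes 5.03% and 11.9%).

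Other type I response genes, 50 genes outside the list, had smaller medians than it did. In microglia-like cells 6 of 43 were higher and 5 lower for TBI+PBS over sham (all genes 6.98% and 7.71%), with a median log2 ratio of -0.23, and 11 of 46 higher and 0 lower for TBI+IL-25 over TBI+PBS (all genes 6.4% and 4.68%), with a median of 0.49. In astrocyte-like cells the counts were 8 and 1 of 35 (all genes 7.29% and 6.16%), median 0.32, and 6 and 0 of 42 (all genes 5.03% and 11.9%), median 0.35. The chemokine Cxcl10 stood at 23.7, 123 and 505 CPM in microglia-like and at 0.543, 75.8 and 204 in astrocyte-like cells. Genes leaning to type II interferon, 19 in number, were also counted, and a difference between the classes was not tested. For TBI+PBS over sham, 1 of 12 was higher and 5 lower in microglia-like cells (median -0.75; all genes 6.98% and 7.71%), and 7 of 10 higher and 0 lower in astrocyte-like cells (median 1.43; all genes 7.29% and 6.16%). The GTPase gene Iigp1 stood at 0.272, 8.46 and 46.3 CPM in astrocyte-like and at 0.918, 0.398 and 2.26 in microglia-like cells. Of 12 genes for MHC class I processing, TBI+IL-25 over TBI+PBS had 1 higher in microglia-like cells, B2m, and 2 in astrocyte-like cells, Tap1 and Psmb8, beside 6.4% and 5.03% of all genes. A count of 1 of 12 is near the share of all genes. Of 12 upstream sensors and adaptors, the same pair had 1 higher and 0 lower of 12 in microglia-like cells, and 0 higher and 2 lower of 11 in astrocyte-like cells, where 4.68% and 11.9% of all genes were lower.

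Immediate early genes, which tissue dissociation is known to induce, also differed between the libraries. Of 16, 11 were higher for TBI+PBS over sham in astrocyte-like cells (median log2 ratio 1.94), beside 7.29% of all genes, and 4 in microglia-like cells (median -0.02), beside 6.98%. Over TBI+PBS, TBI+IL-25 had 4 higher in astrocyte-like cells (median 0.58), beside 5.03% of all genes, and 3 in microglia-like cells (median 0.66), beside 6.4%. Their part in the interferon-stimulated levels was not tested.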

How the data were processed

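Single-cell RNA-seq counts (10x 3′ libraries) of 1 library per group were used. The deposited counts are UMIs per gene and cell barcode, made by the authors with Cell Ranger, versions 7.1.0 and 7.2.0 per the file headers. Seurat 4.4.0, bcl2fastq 5.0.1 and, as genome build, GRCm39 are named in the submitters' processing notes, with Cell Ranger 7.2.0 alone.

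A barcode was dropped if it had fewer than 500 UMIs or 300 genes, or over 20% of its UMIs from mitochondrial genes. Doublets were called at a Scrublet score of 0.2, set after seeing the scores, and 211, 303 and 635 were removed. Cells were clustered jointly (2000 variable genes without interferon genes, 30 components, 15 neighbours, Leiden resolution 1) into 29 clusters. A class was named "like" a cell type from at least 3 markers, each in at least 20% of cells and at 2 times the median cluster, and rebuilt names may differ from the authors'. Clusters that met no rule stayed unnamed.

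The 32 genes, the marker and pathway lists and the rules were chosen with earlier results of these data known. Described in full are, for each pair of libraries, the 6 genes furthest from 1 by the nearest interval bound, and the 5 with the highest CPM, in microglia-like and astrocyte-like cells. In other classes and in each pathway list at most the 3 furthest were taken, with every interferon ligand that had a UMI, and the remaining listed genes are given by value so that all 32 are accounted for. Intervals and limits cover counting error only. A gene with 0 counts was set against a limit of 3 counts. Promoters came from RefSeq, and shared 31-base words from reference transcripts. The scripts were tested on simulated data with known changes.

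Alternatives were other size factors, other filters, cell weights, clusterings, class assignment, doublets kept, free RNA subtracted and a thinning to 2000 UMIs. Clustering used scanpy 1.11.5 with leidenalg 0.10.2, and intervals came from SciPy 1.17.1 under Python 3.11.15.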

Additional observations from a re-analysis of the deposited data

Results flagged for a closer look

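Some genes had counting intervals on opposite sides of a ratio of 1 in microglia-like and astrocyte-like cells of the same libraries. Each difference was not tested, since each group has 1 library. For TBI+PBS over sham, Gbp2 had a ratio of 0.642 in microglia-like and 23.8 in astrocyte-like cells, and Gbp3 0.742 and 3.37. Xaf1 had 0.626 and 2.39, Trim30a 0.704 and 1.70, Rtp4 0.805 and 1.72, and Herc6 0.652 and 1.22. For TBI+IL-25 over sham, the RNA sensor Ddx58 had 0.735 in microglia-like and 1.25 in astrocyte-like cells. For TBI+IL-25 over TBI+PBS, Oasl1 had 2.14 in microglia-like and 0.512 in astrocyte-like cells, the latter on 32 and 17 UMIs.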

How the results depend on the processing

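No paired analysis was possible because each group has 1 library, and no library could be left out. Alternatives that leave out a cluster were chosen after seeing the data. The median log2 ratio of TBI+PBS over sham in microglia-like cells was 0.17, and -0.21 without the Spp1-led cluster, with 2 genes higher in place of 6. At a minimum of 200 UMIs 3 of 25 were higher. Without that cluster TBI+IL-25 over TBI+PBS was 1.14 in place of 0.93, and Rsad2 for TBI+PBS over sham was -0.022 in place of 1.78. The cause was not tested. In astrocyte-like cells TBI+IL-25 over TBI+PBS was 0.65, 0.85 with median-of-ratios size factors, and 0.35 with 5 higher in place of 9 when interferon genes were kept for clustering. In that clustering, clusters of 4, 712 and 1278 cells and of 0, 1011 and 96 cells best matched astrocytes but stayed unnamed. The astrocyte-like cells compared were thus not the same, and the part of this in the change was not tested. At 200 UMIs, where fewer genes are tested, 9 of 16 were higher for TBI+PBS over sham in place of 19 of 31, and 12 of 17 for TBI+IL-25 over sham in place of 22 of 30. Over all cells TBI+IL-25 over TBI+PBS had 2 genes higher, 6 with median-of-ratios size factors and 4 with cells weighed equally. The shares of all genes under these alternatives are not given, so the counts describe the list and do not set it apart from other genes.

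Across alternatives, TBI+IL-25 over sham ranged from 0.95 to 1.39 in microglia-like and from 2.18 to 2.67 in astrocyte-like cells, and TBI+PBS over sham in astrocyte-like cells from 1.33 to 1.95. Of 686 alternative values for single genes, 598 lay within the main value's counting interval, 87 lay outside it and 1 reversed, and 678 kept their sign. At 2000 UMIs the median co-occurrence fold was 3.75, 5.76 and 3.51 in microglia-like cells. Depth limits genes with few sham UMIs, among them Ifi44 and Mx1 in astrocyte-like cells.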

Other observations

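Each gene's class with the highest CPM differed by library, among classes with at least 10 cells. In sham, endothelial-like cells held it for 16 of the 32 genes and monocyte/macrophage-like cells for 11. In TBI+PBS, monocyte/macrophage-like cells held it for 13 and neutrophil-like cells for 7, and in TBI+IL-25 neutrophil-like cells for 13 and monocyte/macrophage-like cells for 8. Sham had 0 neutrophil-like cells, and the UMI counts in these classes are small. A single UMI in a small class can decide the highest class, as for Oasl1 in T cell-like cells of sham. The same counts over all genes are not given. The numbers of genes above thus describe the list and do not set it apart from other genes.

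Some genes outside the list, chosen after their values were seen, add to this. Gbp5, a guanylate-binding protein, stood at 11.3, 4.81 and 11.1 CPM in microglia-like cells of sham, TBI+PBS and TBI+IL-25, and at 0.475, 3.63 and 14.7 CPM in astrocyte-like cells. Cd274, which encodes the checkpoint ligand PD-L1, stood at 6.53, 16.6 and 35.8 CPM in microglia-like cells, with a ratio of TBI+IL-25 over TBI+PBS of 2.17 (1.93 to 2.43). The chemokine Cxcl11 had 2, 8 and 91 UMIs there. No test was possible with 1 library a group.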
